A study of Mus musculus with 40 samples.

Results

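Aldh1l1 and 7 further enzymes of folate one-carbon metabolism (Aldh1l2, Mthfd1, Mthfd1l, Mthfd2, Shmt1, Shmt2 and Tyms) were read by gene symbol from the count table of every library. All 8 of the 8 symbols were present, among 32531 genes, and all 8 passed the low-count filter in each fit. The 40 libraries were astrocyte TRAP-seq, in which an EGFP-tagged ribosomal protein pulls down ribosomes with the RNA they carry. Adult mice of the Aldh1l1-EGFP/Rpl10a line JD130 were used in every group, controls included, so the promoter of Aldh1l1 itself drives the tag and no group lacks it. Control mice were housed in the same room without defeat. The other mice went through 10 days of social defeat, 10 minutes a day. Those with a social interaction index above 1 were called resilient, and those below 1 stressed, a group that is also called stress susceptible. Tissue was collected 2 days after the last defeat.

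Control, resilient and stressed libraries numbered 3, 4 and 5 in the prefrontal cortex (PFC), 3, 3 and 5 in the hippocampus (HIP), 3, 3 and 4 in the nucleus accumbens (NAC), and 2, 2 and 3 in the caudate putamen (CPU). Each library pooled 2 mice, or 4 to 6 mice in NAC. The labels do not say which mice gave more than 1 region, and p-values therefore reflect pool-to-pool spread only. Library totals were 21.3 to 33.0 M counts in genes, with a median of 25.6 M. Levels are in CPM, counts scaled to 1 M counts in genes per library, with SDs over libraries.

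Folate carries single carbon units between serine, glycine, formate, purines, thymidylate and methionine, in a cytosolic and a mitochondrial branch. ALDH1L1 is the cytosolic 10-formyltetrahydrofolate dehydrogenase, which releases the carbon unit as CO2, and ALDH1L2 is its mitochondrial counterpart. In the adult brain ALDH1L1 is widely used as a general astrocyte marker.

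2 features of the libraries touch the results below. First, library names used a long code for the region in 16 libraries and a short code in 24, and what this difference stands for is not given in the sources used here. PFC had 7 long and 5 short, HIP 6 and 5, NAC 3 and 7, and CPU 0 and 7. Second, in 6 libraries long genes were raised relative to short ones: the correlation of each gene's deviation from its region mean with its log10 length (the length trend, over 11768 genes) lay between 0.403 and 0.501. In the other 34 libraries it lay between -0.393 and 0.273. All 6 were stressed libraries: PFC 4 and 5, HIP 2 and 3, NAC 4 and CPU 3. Summed CPM of 16 core astrocyte genes ran from 34900 to 70300 over the 40 libraries.

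The promoters come first, because one of them drives the tag and because 3 of the genes behind them moved together across libraries. RefSeq (GRCm38.p6) gave the 250 bases before the start of 7 of the 8 genes. Aldh1l2 had no entry. 5 are printed on the strand of the gene, with matches to the CCAAT box (CCAAT) and the GC box (GGGCGG) in capitals, on either strand. Aldh1l1 drives the tag, Mthfd1 and Shmt2 followed its level most closely, and Mthfd2 and Shmt1 differed most between regions. The Aldh1l1 stretch lies at chr6:90550543-90550792 on the plus strand, inside the span that GENCODE M21 gives the gene. Mthfd1 lies at chr12:76254982-76255231 on the plus strand. Shmt2 lies at chr10:127522445-127522694, Mthfd2 at chr6:83317605-83317854 and Shmt1 at chr11:60811266-60811515, all on the minus strand.
Aldh1l1: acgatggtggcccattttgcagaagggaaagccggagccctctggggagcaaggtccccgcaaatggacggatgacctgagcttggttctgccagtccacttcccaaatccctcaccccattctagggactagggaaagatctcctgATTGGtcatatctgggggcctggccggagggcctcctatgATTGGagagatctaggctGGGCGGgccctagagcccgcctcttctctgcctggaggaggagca
Mthfd1: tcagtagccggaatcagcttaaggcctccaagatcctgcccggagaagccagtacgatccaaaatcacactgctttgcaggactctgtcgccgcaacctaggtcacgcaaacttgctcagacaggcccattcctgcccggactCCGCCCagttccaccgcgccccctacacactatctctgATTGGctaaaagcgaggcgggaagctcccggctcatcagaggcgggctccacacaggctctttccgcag
Shmt2: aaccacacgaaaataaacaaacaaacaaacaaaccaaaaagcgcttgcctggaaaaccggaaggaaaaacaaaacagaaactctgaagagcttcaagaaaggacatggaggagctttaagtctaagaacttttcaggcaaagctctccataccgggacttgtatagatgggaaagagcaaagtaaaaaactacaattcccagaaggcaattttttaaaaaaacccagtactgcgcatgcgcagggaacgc
Mthfd2: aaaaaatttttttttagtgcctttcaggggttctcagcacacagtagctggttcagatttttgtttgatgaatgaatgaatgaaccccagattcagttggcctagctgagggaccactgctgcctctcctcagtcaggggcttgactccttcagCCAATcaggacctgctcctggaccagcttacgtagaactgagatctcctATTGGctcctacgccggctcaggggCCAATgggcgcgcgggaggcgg
Shmt1: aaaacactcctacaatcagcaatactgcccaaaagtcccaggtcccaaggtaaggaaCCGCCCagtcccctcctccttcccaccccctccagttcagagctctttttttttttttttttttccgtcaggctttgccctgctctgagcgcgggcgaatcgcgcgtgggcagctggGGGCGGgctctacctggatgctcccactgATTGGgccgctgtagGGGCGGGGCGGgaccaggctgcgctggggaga

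The Aldh1l1 promoter held 2 CCAAT matches, at -103 and -63, and 1 GC box at -45, counted from the start to the first base of the match. Mthfd1 held 1 of each. Mthfd2 held 3 CCAAT matches, at -96, -47 and -22, and no GC box. Shmt1 held 4 GC boxes, of which the pair nearest the start overlap, and 1 CCAAT match. Shmt2 had neither motif in this window and a GC content of 40.8%, against 59.6% for Aldh1l1 and a median of 52.4% over all promoters. These short motifs are common: of 32851 promoter entries of the same length, 33.85% held CCAAT and 32.74% held GGGCGG. None of the 7 promoters held the TATA box (TATAAA, in 12.37% of entries), the ATF4 element core (TGATGNAA, in 3.452%) or the NFI palindrome (in 0.03653%). A match is only a description of the letters. How much of this stretch the tag construct contains is not given in the sources used here.

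Aldh1l1 was by far the most abundant of the 8 in the ribosome-bound RNA, and its mitochondrial counterpart Aldh1l2 the least. The pull-down selects cells that use the Aldh1l1 promoter, so a high Aldh1l1 level was built into the design. All 40 libraries were pull-downs, with no unselected RNA to set beside them. Whether transcripts of the tag construct add Aldh1l1 reads is not given in the sources used here. The ranks and ratios of Aldh1l1 below therefore describe the pull-down only. Levels were compared per kilobase of exon, with union exon lengths from GENCODE M21. Aldh1l1 averaged 107 CPM per kb over the 40 libraries, above 97.3% of 19165 genes, with 512 genes above it. Mthfd1 and Shmt2 came next. Mthfd1, the cytosolic enzyme with 3 activities that interconverts folate-bound carbon units, averaged 19.6 CPM per kb. Shmt2, the mitochondrial serine hydroxymethyltransferase that takes a carbon unit from serine, averaged 15.9. The other 5 lay much lower.

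Mthfd2, the mitochondrial methylene-tetrahydrofolate dehydrogenase and cyclohydrolase, averaged 1.37 CPM per kb. Tyms, the thymidylate synthase that uses a carbon unit to make thymidylate, averaged 1.15. Shmt1, the cytosolic serine hydroxymethyltransferase, averaged 0.82. These 3 and Mthfd1l are low transcripts whose order within a library was not fixed. Mthfd1l, the mitochondrial formyltetrahydrofolate synthetase that releases formate, averaged 0.749. Aldh1l2 averaged 0.399 CPM per kb, above 35.8% of genes. The ranges of Mthfd1 and Shmt2 overlapped, as did those of Mthfd2, Tyms, Shmt1, Mthfd1l and Aldh1l2 with their neighbours in this order, while Aldh1l1 stood above all others in every library.

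**Figure D1:**
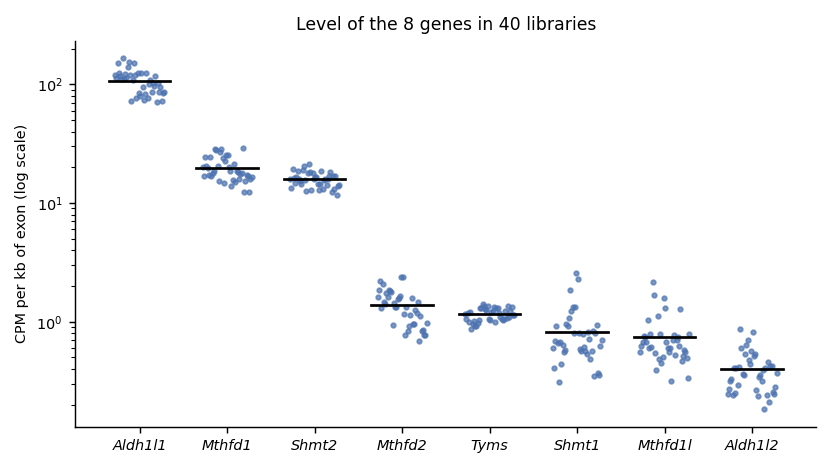
Level of each gene in CPM per kb of exon (log axis), with 1 point for each of the 40 libraries and a bar at the mean. Aldh1l1 averages 107 and Aldh1l2 0.399.

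Ratios per kilobase within a library put the branches side by side. Aldh1l1 exceeded Aldh1l2 by 300-fold ± 115 (SD, n = 40 libraries), with a lowest ratio of 97.5 and a highest of 663. The serine hydroxymethyltransferases went the other way: mitochondrial Shmt2 exceeded cytosolic Shmt1 by 23.6-fold ± 9.62. Mthfd1 exceeded the mitochondrial Mthfd1l by 29.6-fold ± 10.5 and Mthfd2 by 15.3-fold ± 4.33. The steadiest ratios were those of Aldh1l1 to Mthfd1, 5.51 ± 0.842, and to Shmt2, 6.69 ± 0.933.

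Counts behind these levels differed widely. Aldh1l1 had 7488 to 20758 counts per library, Mthfd1 1304 to 4255 and Shmt2 901 to 1856. Aldh1l2 had 37 to 185, Mthfd1l 32 to 210, Shmt1 31 to 270, Mthfd2 56 to 251 and Tyms 130 to 249. At the lowest counts the counting error alone was 16.4% for Aldh1l2, 17.7% for Mthfd1l and 18.0% for Shmt1, against 1.16% for Aldh1l1. The strand setting of the counting is not given in the sources used here. Of the exon bases of Aldh1l2, 1056 lie opposite D10Wsu102e, and of those of Aldh1l1, 499 lie opposite the antisense gene Gm15756. How reads there were counted is therefore not known. Any set aside as ambiguous would lower the levels of these genes. Aldh1l1 also shares 105 exon bases with Gm45901 on the same strand, which no strand setting would separate. The other overlaps were 184 bases of Shmt1 with Smcr8, 37 of Mthfd1 with Gm47525 and 32 of Shmt2 with Ndufa4l2. The pseudogene Tyms-ps had at most 2 counts.

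Across the 40 libraries the 3 abundant genes moved together. The correlation of log2 CPM was 0.851 between Aldh1l1 and Shmt2, 0.812 between Mthfd1 and Shmt2, and 0.727 between Aldh1l1 and Mthfd1. With group means removed these were 0.889, 0.814 and 0.731. The points share libraries, depth and scaling, so the values are a description. Aldh1l1 stood at 0.006 with Shmt1 and -0.1 with Tyms, and at 0.109 and 0.454 with group means removed.

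Among 11641 genes, those most like Aldh1l1 over the 40 libraries were Rapgef3 (r = 0.904), Cbs (0.900), Eps8 (0.865), Shmt2 (0.851) and Pfkm (0.844). Most like Mthfd1 were Gart (0.907), which encodes an enzyme of purine synthesis that uses 10-formyltetrahydrofolate, Tbc1d17 (0.895) and Gpi1 (0.894). Most like Shmt2 were Hsd17b4 (0.863), Atg7 (0.859) and Aldh1l1. Among those most like Mthfd1l were Hk1 (0.854) and Snd1 (0.849). Aldh1l2 was followed most closely by Clstn2 (0.79), Adam11 (0.771) and Cadps (0.761), and Mthfd2 by Dnajc21 (0.831), Acsl5 (0.83) and Susd4 (0.816). Adck3 (0.818), Slit1 (0.804) and Il16 (0.802) led for Shmt1, and Cdkn2b (0.773), Nsmce1 (0.77) and B9d1 (0.731) for Tyms.

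Region came next. Mthfd2 had its highest mean in PFC and its lowest in CPU. In control libraries its levels were 5.59, 6.44 and 7.67 CPM in PFC, 3.26, 5.01 and 4.59 in HIP, 4.66, 2.9 and 3.21 in NAC, and 2.38 and 3.91 in CPU. Every PFC control lay above every control of the other regions. The share of all genes so separated is not given, here or for the region ranges below. The joint test of the 4 regions in controls, by edgeR's quasi-likelihood test with Benjamini-Hochberg adjustment over all genes, gave an adjusted p of 0.0455 for Mthfd2. PFC exceeded NAC by a log2 fold change of 0.89 ± 0.249 (SE, adjusted p = 0.0487) and CPU by 1.05 ± 0.287 (adjusted p = 0.0358), and HIP by 0.615 ± 0.248 (adjusted p = 0.168, not called). Mthfd2 was the 1 member called of 8 in the joint test, where 18.8% of 16053 genes were called, so the share of members lies below the background.

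In control libraries alone edgeR called no other member in the joint test, while DESeq2 called Mthfd2 (adjusted p = 0.00268) and Shmt1 (adjusted p = 0.0186), among 4913 genes. By edgeR, Shmt1 had the next smallest joint adjusted p, 0.0814, and the other 6 lay between 0.28 and 0.954. Between pairs of regions, 1 member was called in PFC against NAC (background 9.01% of genes) and 1 in PFC against CPU (13.2%), both Mthfd2. None was called in PFC against HIP (6.42%), HIP against NAC (11.6%), HIP against CPU (10.7%) or NAC against CPU (0.0374%). In those 4 comparisons 2, 1, 2 and 0 members had an unadjusted p under 0.05, and DESeq2 called 1 (Shmt1, -1.161 in PFC against HIP, adjusted p = 0.0253), 0, 0 and 0. Over all genes DESeq2 called 1896, 2776, 2622 and 121 in the same order. The Mthfd2 calls rest on few pools: leaving out 1 of the 11 control libraries at a time kept the joint call in 3 of 11 fits, those without HIP control 1, NAC control 1 or CPU control 2. The adjusted p ran from 0.0377 without HIP control 1 to 0.164 without PFC control 3. Leaving out CPU control 1 gave a log2 fold change of 0.808 against CPU (adjusted p = 0.271), and leaving out NAC control 2 gave 0.81 against NAC (adjusted p = 0.148).

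All 40 libraries, fitted together and averaged over the 3 conditions, gave a fuller picture, since each region then had 7 to 12 libraries. Of the 8 members, 6 differed between regions, and so did 62.7% of 16759 genes, so region differences were common throughout the transcriptome. By their means, Aldh1l1 and Mthfd2 were highest in PFC, Shmt1 and Aldh1l2 in HIP, Mthfd1 was lowest in CPU, and Tyms lowest in PFC. Of these end places only those of Shmt1 and Aldh1l2 were called against each other region. Not called against the nearest region were Aldh1l1 and Mthfd2 in PFC against HIP (adjusted p = 0.109 for both), Mthfd1 in CPU against NAC (0.398) and Tyms in PFC against NAC (0.0986). Mthfd1l (joint adjusted p = 0.158) and Shmt2 (0.431) were not called. CPM are shares of the counts of each pull-down, so these levels give neither the number of astrocytes nor the RNA per astrocyte.

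Over all conditions, Aldh1l1 ranged from 499 to 752 CPM in PFC, with a median of 546. It ranged from 329 to 683 in HIP (median 493), 334 to 566 in NAC (447) and 318 to 467 in CPU (389). Every CPU library lay below every PFC library, while HIP overlapped all 3 other regions. The joint test gave an adjusted p of 0.00811 (edgeR). PFC exceeded NAC by 0.41 ± 0.133 on the log2 scale (adjusted p = 0.0155) and CPU by 0.53 ± 0.15 (adjusted p = 0.00418), a fold of 1.45 with a 95% interval of 1.17 to 1.79. Neighbours in the order PFC (582 ± 86.6 CPM), HIP (476 ± 114), NAC (439 ± 77.3) and CPU (386 ± 52.6) were not called apart. Rpl10a, the gene of the tagged protein, whose counts may hold both the native and the tagged transcript, ran from 80.4 to 206 CPM over all libraries. It also differed between regions (joint adjusted p = 0.00321, edgeR). PFC exceeded NAC in Rpl10a by 0.451 ± 0.157 on the log2 scale (adjusted p = 0.0225) and CPU by 0.737 ± 0.179 (0.00108). A link between the region differences of Rpl10a and Aldh1l1 was not tested.

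Mthfd2 over all conditions again had its highest mean in PFC. It ranged from 4.56 to 7.67 CPM in PFC (median 6.14, n = 12), 2.67 to 8.28 in HIP (5.01, n = 11), 2.9 to 5.54 in NAC (4.06, n = 10) and 2.38 to 3.91 in CPU (2.89, n = 7). All 12 PFC libraries lay above all 7 CPU libraries. The fold of PFC over CPU was 1.95, with a 95% interval of 1.56 to 2.42 (adjusted p = 5.76e-06, edgeR). PFC also exceeded NAC by 0.59 ± 0.133 on the log2 scale (adjusted p = 0.000725), and HIP exceeded CPU by 0.69 ± 0.156 (adjusted p = 0.000588). Under 5 added settings the joint call held each time, with adjusted p from 1.67e-06 to 0.000719. In the 24 short-code libraries alone, PFC over CPU was 1.012 on the log2 scale (adjusted p = 0.000141).

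Shmt1 was highest in HIP. It ranged from 2.28 to 10.0 CPM in HIP, with a median of 4.79, against 1.21 to 3.73 in PFC (median 2.42), 1.88 to 3.24 in NAC (2.30) and 1.36 to 3.63 in CPU (2.44). Levels outside HIP were alike in range, and the HIP range overlapped them at its lower end. HIP stood 1.05 ± 0.219 above PFC (adjusted p = 0.000319), 0.96 ± 0.228 above NAC (0.00107) and 1.05 ± 0.261 above CPU (0.00144) on the log2 scale. The ratio of Shmt2 to Shmt1 per kb was 14.4 ± 5.6 in HIP and 29 ± 9.2 in PFC.

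Choroid plexus markers varied among the HIP libraries and touch this result. Their summed CPM, over 8 genes of which 4 were at 0 in some library, ran from 49.6 to 10800 in HIP and from 1.98 to 56 in the other regions. The 5 HIP libraries at or below 1000 CPM had Shmt1 levels of 3.09 to 5.13 CPM, and the 6 above had 2.28 to 10.0. Without those 6, HIP still exceeded PFC in Shmt1 by 0.76 on the log2 scale (adjusted p = 0.032), NAC by 0.667 (0.0464) and CPU by 0.761 (0.0326). In the 24 short-code libraries alone the Shmt1 difference between HIP and PFC was 0.591 and was not called (adjusted p = 0.216), and the joint adjusted p was 0.129. Among HIP libraries, long-code ones had 3.1 to 10.0 CPM and short-code ones 2.28 to 5.13.

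Aldh1l2, at 2.67 to 6.11 CPM (median 4.0) in HIP, was also higher there. It ranged from 1.81 to 6.46 in PFC (median 2.42), 1.37 to 3.42 in NAC (2.45) and 1.57 to 3.19 in CPU (2.11). HIP overlapped each other region. HIP exceeded PFC by 0.57 ± 0.16 on the log2 scale (adjusted p = 0.00617), NAC by 0.71 ± 0.167 (0.000921) and CPU by 0.67 ± 0.189 (0.00464). Without the 6 HIP libraries high in choroid plexus markers the joint call was lost (adjusted p = 0.098), with HIP above PFC by 0.445 (adjusted p = 0.167) and above CPU by 0.544 (0.0761), while HIP against NAC was still called (0.59, adjusted p = 0.0428). The Aldh1l1 to Aldh1l2 ratio per kb was lowest in HIP, 206 ± 65.2, and highest in PFC, 380 ± 139.

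Mthfd1 averaged 93.9 ± 18.9 CPM in PFC, 97.9 ± 20.2 in HIP, 81.5 ± 19 in NAC and 67.7 ± 8.69 in CPU. CPU lay 0.41 ± 0.133 below PFC (adjusted p = 0.0119) and 0.47 ± 0.135 below HIP (adjusted p = 0.0052), with overlapping ranges. Tyms was the steadiest gene, with a highest level only 1.61 times its lowest over the 40 libraries. It averaged 6.25 ± 0.669 CPM in PFC and 7.63 ± 0.724 in HIP, a log2 difference of -0.29 ± 0.0778 (adjusted p = 0.00453), and 7.28 ± 0.691 in CPU, a difference of -0.25 ± 0.0879 (adjusted p = 0.0186). The joint Tyms call was lost in the 24 short-code libraries (adjusted p = 0.0825). Shmt2 averaged 51.8 ± 6.67, 50.9 ± 7.8, 48.4 ± 6.12 and 43.9 ± 6.32 CPM in PFC, HIP, NAC and CPU. The Shmt2 fold of PFC over CPU was 1.12, with a 95% interval of 0.971 to 1.3.

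In this 40-library fit, 3 members were called in PFC against HIP, where 31.9% of genes were. There were 2 in PFC against NAC (37.6%), 4 in PFC against CPU (45.4%), 2 in HIP against NAC (37.8%) and 4 in HIP against CPU (43.1%). None was called in NAC against CPU, where 9.34% of genes were. These shares are not far from the background, so the members as a set did not stand out.

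**Figure D2:**
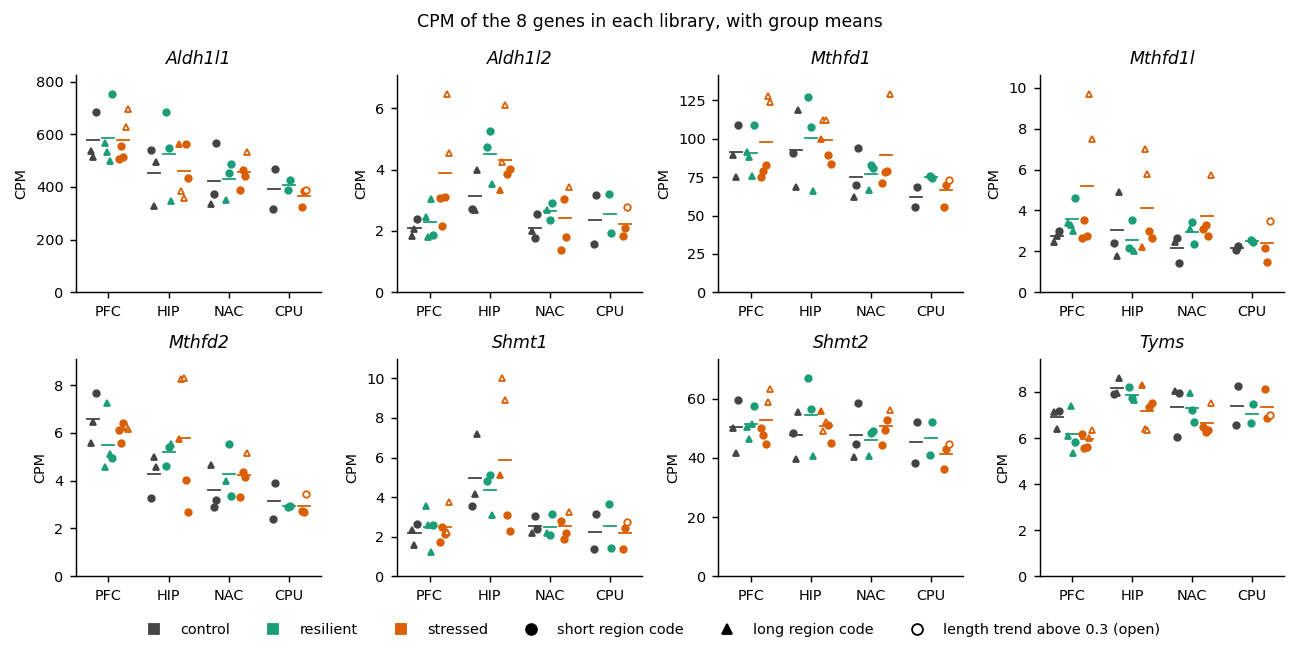
CPM of each gene in every library (linear axes from 0), by region and condition, with a bar at each group mean and open symbols for the 6 libraries with a length trend above 0.3. Mthfd2 in PFC (4.56 to 7.67) lies above CPU (2.38 to 3.91), and the highest PFC values of Mthfd1l (9.68 and 7.49) are open symbols.

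The defeat comparisons ask which transcripts of these enzymes differed with susceptibility to stress. In PFC, Aldh1l2 was higher in stressed than in control and in resilient libraries. By edgeR the other 7 members were not called, and DESeq2 also called Mthfd1l against controls. Aldh1l2 stood at 1.85, 2.05 and 2.39 CPM in controls, at 2.46, 1.81, 3.05 and 1.88 in resilient libraries, and at 3.08, 2.17, 3.12, 6.46 and 4.55 in stressed libraries. Stressed libraries 4 and 5 were highest, and stressed 2 lay inside the control range, so the groups overlap. Against controls the log2 fold change was 0.89 ± 0.289 (95% interval 0.264 to 1.511, adjusted p = 0.0372, edgeR), a fold of 1.85. Against resilient libraries it was 0.79 ± 0.259 (adjusted p = 0.0414).

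So 1 of 8 members was called in stressed against control, where 28.1% of 15491 genes were called, 16.4% higher and 11.7% lower. Likewise 1 of 8 was called in stressed against resilient, where 25.0% were called, 14.3% higher and 10.7% lower. Both shares of members lie below the background. The median log2 fold change of the 8 members was 0.11 against controls, beside 0.04 over all genes. The 2 comparisons share the stressed libraries.

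The 2 highest Aldh1l2 values came from libraries that stood apart in other ways. Stressed libraries 4 and 5 also had the largest length trends in PFC, 0.477 and 0.409, and the most neuronal marker RNA: the summed CPM of 12 neuronal markers, none of them at 0 in any library, was 6120 and 5600 there. It was 2230 to 3000 in controls, 2480 to 3080 in resilient libraries and 2800 to 3100 in the other 3 stressed libraries. Other marker lists stood apart in all 5 stressed PFC libraries. Microglial markers (11 genes, 1 at 0 in some library) summed to 40 to 89.2 CPM there, 21.8 to 31.9 in controls and 30.1 to 33.5 in resilient libraries. Endothelial markers (8 genes, 3 at 0 in some library) summed to 21.8 to 56, 10.8 to 15.4 and 12.4 to 14.8 in the same order, mural markers (6 genes) to 37.5 to 72.9, 21.3 to 30.8 and 23.8 to 36.7, and meningeal fibroblast markers (6 genes, 2 at 0 in some library) to 21.5 to 63.6, 13.6 to 16.6 and 13.6 to 20.1. Markers of oligodendrocyte precursors (5 genes) summed to 497 to 638 in stressed libraries and 690 to 749 in controls, with resilient libraries at 555 to 718. Core astrocyte markers (16 genes) spread widely in stressed libraries, from 39200 to 69600 CPM with a median of 65800. They summed to 47100 to 48900 in controls and 44400 to 57300 in resilient libraries. The part of this marker RNA in the Aldh1l2 difference was not tested. Without stressed 4 and 5, the Aldh1l2 log2 fold change against controls was 0.485 (adjusted p = 0.137), and with the length trend in the model it was 0.266 (adjusted p = 0.515). In these fits 37.8% and 33.8% of all genes were called. The length trend comes from the same counts. In PFC it was -0.134 to 0.477 in stressed libraries and -0.305 to -0.176 in controls. The fit with the trend therefore cannot fully separate it from condition. Against resilient libraries no member was called in either fit, where 38.1% and 36.8% of genes were. Leaving out single libraries ended the Aldh1l2 call against controls in 6 of 12 fits, without control 1, 2 or 3, resilient 1, or stressed 4 or 5, with adjusted p from 0.0506 to 0.142. Against resilient libraries it ended in 8 of 12, without control 1, 2 or 3, resilient 1, 2 or 4, or stressed 4 or 5, with adjusted p from 0.0529 to 0.124.

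Mthfd1l had the largest estimate in PFC stressed against control, but over all 12 libraries it passed by DESeq2 only (0.918, adjusted p = 0.0478). It stood at 2.47, 2.76 and 3.01 CPM in controls, 3.37, 3.27, 3.01 and 4.60 in resilient libraries, and 2.64, 3.53, 2.73, 9.68 and 7.49 in stressed libraries. Stressed 4 and 5 again stood apart, and the other 3 lay among the control and resilient values. The log2 fold change against controls was 0.91 ± 0.377 (adjusted p = 0.0857, edgeR), and against resilient libraries 0.561 ± 0.335 (adjusted p = 0.231), below that of Aldh1l2. Without stressed 4 and 5 it was 0.189 (adjusted p = 0.551), and with the length trend in the model -0.183 (adjusted p = 0.665).

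In PFC the estimates of Aldh1l1 and Mthfd1 had opposite signs in long-code and short-code libraries. Among short-code libraries the control had 683 CPM of Aldh1l1, the resilient library 752, and the 3 stressed libraries 505, 554 and 512. Among long-code libraries controls had 538 and 513, resilient libraries 566, 532 and 499, and the stressed libraries 627 and 698. Stressed was thus lowest under one code and highest under the other. Mthfd1 followed with 109, 109 and then 75.2, 79.1 and 83.1 CPM in the short-code control, resilient and stressed libraries. In long-code libraries Mthfd1 was 89.6 and 75.0 in controls, 91.4, 88.0 and 75.8 in resilient libraries, and 128 and 124 in stressed libraries. The long-code stressed libraries of PFC were stressed 4 and 5, those with a length trend above 0.3. The short-code ones were stressed 1 to 3. Code, length trend and neuronal marker RNA therefore cannot be told apart among the stressed libraries.

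Within the long code 5 of 8 members were called higher in stressed libraries in both comparisons, where 54.0% of genes were called against controls and 51.5% against resilient libraries. The log2 fold changes against controls were 0.281 for Aldh1l1 (adjusted p = 0.0128), 1.435 for Aldh1l2 (0.000648), 0.555 for Mthfd1 (0.000565), 1.657 for Mthfd1l (1.79e-05) and 0.362 for Shmt2 (0.015). Within the short code 2 of 8 were called, both lower, where 24.9% and 22.9% of genes were called. They were Aldh1l1, at -0.287 against control (adjusted p = 0.021) and -0.512 against resilient (0.000339), and Mthfd1, at -0.36 (0.00754) and -0.456 (0.00152). The short code had a single control and a single resilient library, so these values rest on those pools, and their p-values assume that a lone library varies as the 3 stressed ones do. Over all 12 libraries Mthfd1 differed by 0.12 ± 0.179 (adjusted p = 0.637) and Shmt2 by 0.10 ± 0.135 (adjusted p = 0.609) between stressed and control.

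**Figure D3:**
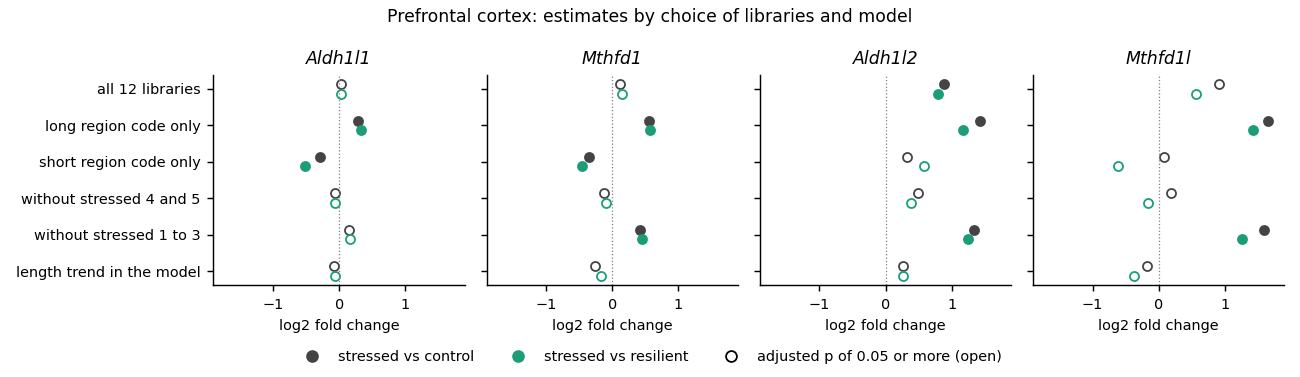
Log2 fold changes in PFC for 4 genes, stressed against control (grey) and against resilient (green), under 6 choices of libraries or model, with filled points at an adjusted p under 0.05. Aldh1l1 moves from 0.281 in long-code libraries to -0.287 in short-code ones. Control and resilient had 1 short-code library each, so the short-code points are to be read as sizes only, whatever their fill.

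Mthfd2 did not follow this pattern. It stood at 5.59, 6.44 and 7.67 CPM in PFC controls, 4.56, 7.26, 5.11 and 4.96 in resilient libraries, and 6.10, 5.59, 6.4, 6.27 and 6.18 in stressed libraries. The stressed values lay within the control range or at its lower edge. The fold of stressed over control was 0.952, with a 95% interval of 0.741 to 1.22. Shmt1 differed by 0.192 ± 0.322 on the log2 scale (adjusted p = 0.671).

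Tyms in PFC stood at 7.15, 6.4 and 7.16 CPM in controls and 6.17, 5.56, 5.62, 5.99 and 6.35 in stressed libraries, with resilient libraries at 5.33 to 7.37. Stressed and control libraries did not overlap, and the share of all genes so separated is not given here. The difference of -0.184 ± 0.138 was not called (adjusted p = 0.328, edgeR), in a comparison with 28.1% of genes called. In PFC resilient against control, 0 of 8 members were called (0% of genes). There 2.35% of genes and 0 members had an unadjusted p under 0.05, and DESeq2 called 0 genes.

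**Figure D4:**
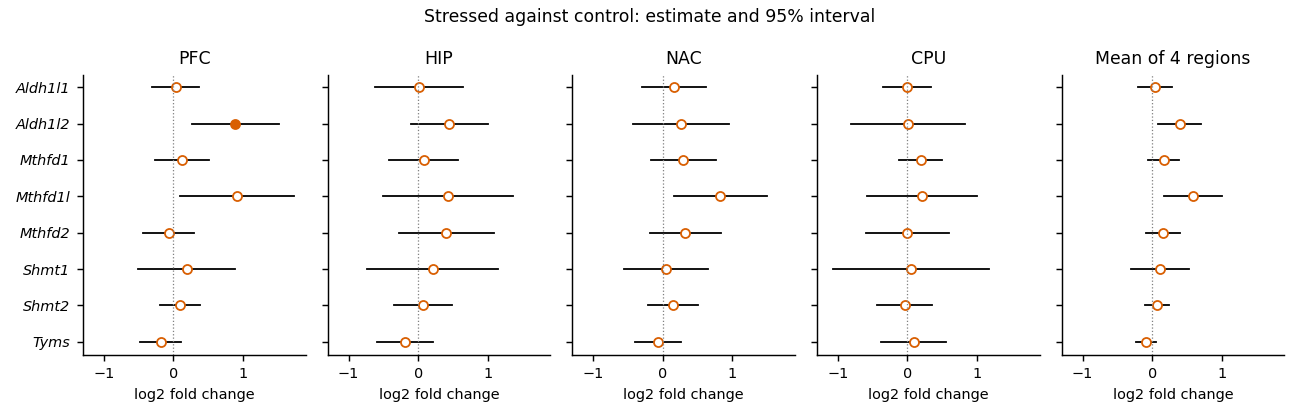
Log2 fold change of stressed against control libraries with 95% intervals in each region and averaged over the 4 regions, with the 1 filled point at an adjusted p under 0.05. Aldh1l2 in PFC lies at 0.89, and the intervals of Aldh1l1 include 0 in all panels.

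Outside PFC no member was called by edgeR in any condition comparison, and neither was any other gene. The share of genes called was 0% in stressed against control, stressed against resilient and resilient against control, in HIP, NAC and CPU alike. Of the 8 members, 1 had an unadjusted p under 0.05 in these 9 comparisons, Mthfd1l in NAC stressed against control. DESeq2 called 0 members and 0 to 190 genes, and 0.779% to 17.2% of genes had an unadjusted p under 0.05. In HIP, Aldh1l1 stood at 540, 329 and 493 CPM in controls, 683, 547 and 345 in resilient libraries, and 563, 385, 358, 562 and 433 in stressed libraries, with all groups overlapping. The log2 fold change of stressed against control was 0.01 ± 0.29.

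Aldh1l2 in HIP stood at 2.71, 2.67 and 4.0 CPM in controls, 4.75, 5.27 and 3.54 in resilient libraries, and 3.33, 4.26, 6.11, 3.85 and 4.01 in stressed libraries. Both defeated groups had higher means, 4.52 ± 0.887 and 4.31 ± 1.06 against 3.12 ± 0.757, and overlapped the controls. Stressed against control gave 0.448 ± 0.251 (adjusted p = 0.525), and resilient against control 0.541 ± 0.277 (adjusted p = 1). Mthfd1l, Mthfd2 and Shmt1 each had their highest HIP levels in stressed libraries 2 and 3: 7.0 and 5.78 CPM for Mthfd1l, 8.26 and 8.28 for Mthfd2, 10.0 and 8.91 for Shmt1. Neuronal markers summed to 6030 and 5630 CPM in these 2 libraries and to 1530 to 3900 in the other HIP libraries. Choroid plexus markers summed to 7100 and 10800 CPM there. Their part in the levels was not tested.

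In NAC, Mthfd1l stood at 2.44, 2.66 and 1.41 CPM in controls, 3.1, 3.44 and 2.35 in resilient libraries, and 3.11, 3.31, 2.76 and 5.73 in stressed libraries. All stressed libraries lay above all controls. In this comparison 0% of genes were called, and the share of all genes so separated is not given here. The log2 fold change was 0.83 ± 0.304 (95% interval 0.154 to 1.499), but the adjusted p was 1. Mthfd1 in NAC was 62.3, 69.6 and 94.3 CPM in controls, 66.6, 83.0 and 81.1 in resilient libraries, and 71.3, 78.5, 79.3 and 129 in stressed libraries. The highest value was that of stressed 4, whose neuronal markers summed to 3940 CPM against 1280 to 2810 in the other NAC libraries. Aldh1l1 stood at 334, 373 and 566 in controls, 350, 452 and 488 in resilient libraries, and 390, 463, 441 and 531 in stressed libraries, which overlap.

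CPU had the fewest libraries. Aldh1l1 was 318 and 467 CPM in controls, 389 and 428 in resilient libraries, and 325, 386 and 389 in stressed libraries. Mthfd1 was 55.4 and 68.5 in controls, 76.0 and 74.7 in resilient libraries, and 55.7, 70.1 and 73.4 in stressed libraries. Both resilient Mthfd1 values lay above both controls, and the share of all genes so separated is not given here. The log2 difference was 0.333 ± 0.147 (adjusted p = 0.62, edgeR), in a comparison with 0% of genes called.

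Averaged over the 4 regions with equal weight, no member was called in stressed against control, where 10.2% of 16759 genes were. Mthfd1l gave 0.59 ± 0.203 (95% interval 0.171 to 0.999, adjusted p = 0.0589) and Aldh1l2 0.40 ± 0.15 (0.091 to 0.703, adjusted p = 0.079), and these 2 had an unadjusted p under 0.05. DESeq2 called 1, Mthfd1l (0.59, adjusted p = 0.0291), among 2947 genes. Aldh1l1 gave 0.05 ± 0.12, a fold of 1.03 with a 95% interval of 0.872 to 1.22. No member was called in stressed against resilient (19.1% of genes, 1 member with an unadjusted p under 0.05, 0 by DESeq2) or in resilient against control (0.0179% of genes, 0 members at an unadjusted p under 0.05, 0 by DESeq2). The test that the condition effect differs between regions called no gene (0%), with 12.6% of genes and 0 members at an unadjusted p under 0.05, and 240 genes and 0 members by DESeq2. Its smallest member p was that of Aldh1l2 (adjusted p = 0.65), and Aldh1l1 had 0.988.

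The 6 libraries with the highest length trend held the upper end of several ranges. Mthfd1l was 3.48 to 9.68 CPM in them, with a mean of 6.53, against 1.41 to 4.91 and a mean of 2.75 in the other 34. Aldh1l2 was 2.78 to 6.46 (mean 4.6) against 1.37 to 5.27 (mean 2.71), and Mthfd1 73.4 to 129 (mean 113) against 55.4 to 127 (mean 82.7). Aldh1l1 was 358 to 698 (mean 498) against 318 to 752 (mean 480), so its range in the 6 lies inside that of the rest. Tyms averaged 6.6 against 7.08, and Rpl10a 104 against 146. With the length trend in the model, the average stressed against control estimate was 0.218 for Mthfd1l (adjusted p = 0.332) and 0.212 for Aldh1l2 (adjusted p = 0.327). Without the 6 libraries these were 0.152 (adjusted p = 0.573) and 0.206 (adjusted p = 0.389).

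**Figure D5:**
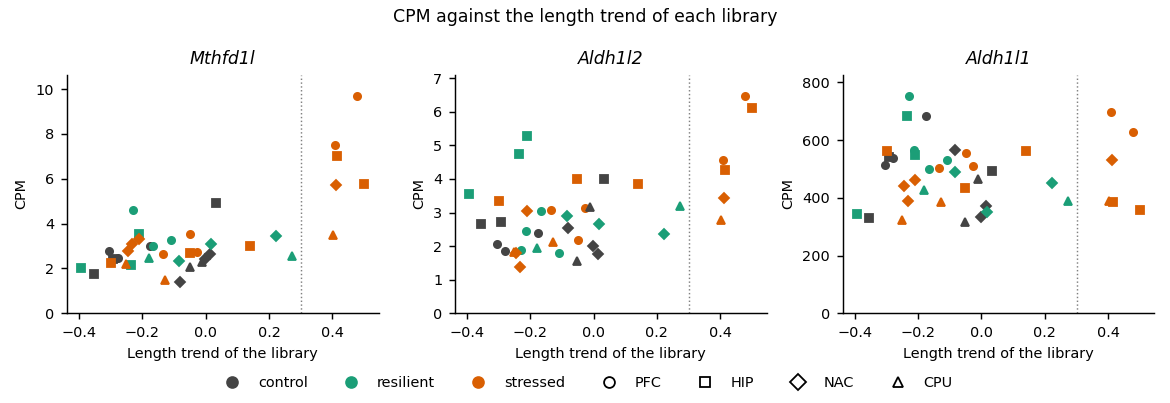
CPM of Mthfd1l, Aldh1l2 and Aldh1l1 against the length trend of each library, coloured by condition and shaped by region, with a dotted line at 0.3. The 6 libraries right of the line, all stressed, have Mthfd1l at 3.48 to 9.68 and Aldh1l1 at 358 to 698.

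Genes around the 8 enzymes were read from 7 lists of 66 genes, 57 of which passed the filter in PFC. In stressed against control, 5 were called higher and 5 lower, beside 28.1% of all genes. Of 5 folate transport and storage genes, Slc19a1, the reduced folate carrier, was higher (0.49 ± 0.146, adjusted p = 0.0267, edgeR), and the median was 0.49 against 0.04 for all genes. Of 9 other folate cycle enzymes, Atic, which uses a formyl unit in purine synthesis, was higher (0.49 ± 0.146, adjusted p = 0.0266). Mtfmt, which formylates the mitochondrial initiator tRNA, was lower (-0.41 ± 0.119, adjusted p = 0.0228), and the median of that list was -0.08.

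Glycine and choline are further sources of folate-bound carbon. Of 7 genes of these routes, 2 were called, both lower, and the list's median log2 fold change was -0.40. Sardh, the mitochondrial sarcosine dehydrogenase that hands a carbon to folate, averaged 119 CPM in stressed and 176 in control libraries (-0.54 ± 0.0899, adjusted p = 0.00195). Gcsh, the H protein of the glycine cleavage system, averaged 291 and 438 (-0.54 ± 0.158, adjusted p = 0.0238). Of 7 methionine cycle and transsulfuration genes, Cth, which makes cysteine from cystathionine, was lower at 54.9 against 85.4 CPM (-0.60 ± 0.0931, adjusted p = 0.0013). None of the 3 serine synthesis genes was called: Phgdh gave 0.235 (adjusted p = 0.353) and Psph -0.271 (0.136).

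The ATF4 and amino acid response list was read because Mthfd2, Shmt2 and Aldh1l2 are known ATF4 targets. Of its 14 genes, 3 were higher, all amino acid transporter subunits: Slc7a11 (0.85 ± 0.161, adjusted p = 0.00338), Slc7a5 (0.72 ± 0.198, 0.0187) and Slc3a2 (0.72 ± 0.228, 0.0347). Ddit4, an inhibitor of mTORC1 signalling, was lower (-0.58 ± 0.169, 0.0242). The list's median was -0.02. Of 12 DNA synthesis and cell cycle genes, which like Tyms serve dividing cells, none was called.

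Against resilient libraries, 2 of the 57 genes were higher, Atic (0.58 ± 0.133, adjusted p = 0.00894) and Slc7a11 (0.48 ± 0.144, 0.0296), and 2 were lower, Sardh (-0.58 ± 0.0833, 0.00111) and Cth (-0.35 ± 0.0864, 0.0127), beside 25.0% of all genes. The microglial, endothelial, mural and meningeal marker sums given above for Aldh1l2 were higher in the same stressed libraries, and their part in these differences was not tested. Estimates of these genes without stressed 4 and 5, or with the length trend in the model, are not given here. In those fits no member was called. The part of the length trend, naming code and neuronal marker RNA of stressed 4 and 5 was not tested either.

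Between the regions of control mice, 14 of 65 tested genes of these lists differed, beside 18.8% of all genes. None of the 9 other folate cycle enzymes, 8 glycine and choline genes or 3 serine synthesis genes did. Of 10 methionine cycle and transsulfuration genes 5 did, among them Gnmt, the glycine N-methyltransferase (adjusted p = 0.00423), and Bhmt, which remethylates homocysteine (0.0265). Of the 14 ATF4 and amino acid response genes 6 did, led by Trib3 (0.000921), Nupr1 (0.00208) and Cebpb (0.00535). Of 7 folate transport genes only Folr1 did (0.0017). Folr1, a folate receptor, is also a choroid plexus gene, and choroid plexus markers summed to 49.6, 7950 and 7350 CPM in the 3 HIP controls.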

How the data were processed

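TRAP-seq libraries of 4 brain regions and 3 conditions were grouped by their labels. The authors deposited whole-number read counts per gene symbol, for which the submitters' processing notes list STAR 2.0.0e, HTSeq and the mm10 build. Neither the gene annotation nor how HTSeq treated strand is given in the sources used here. The row without a gene name held 0 to 5 counts and was left out, and 4.11% to 4.77% of reads were ambiguous. Libraries of a group differed by more than sampling noise in all 52 pairs, so none was treated as a repeat.

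CPM was computed from all gene counts, and divided by union exon length for comparisons between genes. Tests used edgeR 4.0.16 in R 4.3.3: filterByExpr, TMM scaling and the robust quasi-likelihood F test, with Benjamini-Hochberg adjustment over all genes and calls at an adjusted p under 0.05. There was 1 fit for the conditions of each region, 1 for the regions of control libraries, and 1 over all 40 libraries for averages over regions, for the interaction and, as an alternative, for region differences over all conditions. SEs came from the fold change and its F value, and intervals are 95%. Alternatives used DESeq2 1.42.0, other scaling, no filter, a replicate block, libraries left out, the naming code or the length trend (log2 CPM with a prior count of 2). On simulated counts for PFC, 92% of genes changed by 1 on the log2 scale were recovered, and 0.0654% of unchanged genes were called. The simulation gave every gene the same spread and held no length trend. In the data the SD of log2 CPM within groups ran from 0.144 (Tyms) to 0.532 (Shmt1) among the members. The simulated rates therefore need not hold for them. The labels do not say whether replicate numbers mark shared pools, so the main fits had no replicate block.

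The members and lists were chosen with earlier results of these data known. Named genes were all 8 members, Rpl10a, up to 4 genes of each pathway list per comparison with the smallest p, and the 5 genes (Aldh1l1) or 3 genes (others) of highest correlation with each member. For Mthfd1l, 1 of the 3 is not reported here. Intervals and counting errors cover counting or between-pool spread only. Figures were drawn with matplotlib 3.10.9.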

Additional observations from a re-analysis of the deposited data

Results flagged for a closer look

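In NAC stressed libraries, 1 library stood far from the other 3 in a pair of genes. Mthfd1 was 129 CPM in stressed 4 and 79.3 in the next highest, a gap of 0.861 of the whole range. Tyms was 7.54 CPM in the same library and 6.46 in the next, a gap of 0.838 of the range. Both gaps pass Dixon's 95% critical value for 4 samples. Of 32 tests, 8 genes in each of the 4 groups with 4 or 5 libraries, these 2 passed, and chance passes about 1 in 20. NAC stressed 4 is 1 of the 6 libraries with a length trend above 0.3, at 0.411. Tyms averaged 6.6 CPM in those 6 and 7.08 in the other 34. The library is also the 1 long-code library among the NAC stressed ones. The long-code NAC control and resilient libraries had 8.06 and 7.97 CPM of Tyms, and 62.3 and 66.6 of Mthfd1. Short-code NAC stressed libraries had 6.25 to 6.46 of Tyms. The part of trend or code in these gaps was not tested.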

How the results depend on the processing

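Depth limits the low genes most: at 31 to 37 counts the counting error alone is 16.4% to 18.0%. Fold changes of members that passed under at least 1 setting were compared across settings: 685 kept their direction and their side of the threshold, 113 passed newly, 43 no longer passed and 41 changed sign. Causes were not tested.

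The signs changed mostly in PFC, against control and then resilient. In short-code libraries Aldh1l1 was -0.287 and -0.512, Mthfd1 -0.360 and -0.456, Shmt2 -0.233 and -0.271, and Mthfd1l -0.62 against resilient. With the length trend in the model Aldh1l1 was -0.073 and -0.058, Mthfd1 -0.256 and -0.175, Mthfd1l -0.183 and -0.37, and Shmt2 -0.03 and -0.012. Without stressed 4 and 5 Aldh1l1 was -0.066 in both, Mthfd1 -0.127 and -0.103, Shmt2 -0.011 and -0.013, and Mthfd1l -0.161 against resilient. Aldh1l1 was -0.005 and -0.016 with the naming code in the model, and -0.023 and -0.021 with upper-quartile scaling. The short-code fit had 1 control and 1 resilient library, so its values are given as sizes only. Of the others, none had an adjusted p under 0.05.

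In PFC stressed against control, DESeq2 called 2 members, where it called 5377 of 15491 genes. There were 5 members in long-code libraries (54.0% of genes) and 3 without stressed 1 to 3 (7600 of 15618 genes). None was called without stressed 4 and 5 (37.8%), with the length trend in the model (33.8%) or without the low-count filter (3657 of 21690). Against resilient libraries, from the long code on, these were 5 (51.5%), 3 (7178 of 15618), 0 (38.1%), 0 (36.8%) and 0 (3207 of 21690). With upper-quartile scaling no member was called against resilient libraries (4209 of 15491 genes). Averaged over regions, stressed against control gave 1 by DESeq2, beside 2947 genes called, and 1 with the naming code in the model. The share of all genes called in that last fit is not given here, so its count only describes how far the calls moved.

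For the joint region test, 6 members were called in all 40 libraries, 6 with the naming code and 7 with the length trend in that model, 6 in 34 libraries without the highest length trends, 4 in the 24 short-code libraries, 5 without the HIP libraries high in choroid plexus markers, 2 by DESeq2 and 0 without the filter. In the same 6 settings from all 40 libraries on, the numbers were 3, 4, 3, 4, 1 and 3 for PFC against HIP, 2, 2, 5, 2, 3 and 2 for PFC against NAC, and 4, 4, 5, 5, 4 and 5 for PFC against CPU. They were 2, 2, 4, 3, 2 and 2 for HIP against NAC, and 4, 6, 5, 4, 5 and 4 for HIP against CPU. NAC against CPU gave 1 in the short-code libraries. In control libraries with the length trend in the model, PFC against NAC and CPU gave 0 and HIP against NAC and CPU gave 1 each. DESeq2 gave 1 for PFC against HIP, and PFC against NAC gave 0 without the filter. The shares of all genes called are given above for the 40-library fit, and DESeq2 called 4913 genes in the joint test. Those of the other settings are not given here, so these counts only describe how far the calls moved.

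Leaving out 1 library at a time gave 0 to 2 members in PFC stressed against control, 0 to 1 in PFC stressed against resilient, in PFC against NAC and in PFC against CPU, and 0 to 1 in the joint region test. The shares of all genes called in these fits are not given here, so the counts only describe how far the calls moved. Where signs changed, the range was -0.048 to 0.156 (Aldh1l1), -0.002 to 0.255 (Mthfd1) and -0.023 to 0.223 (Shmt2) in PFC stressed against control, -0.051 to 0.208 (Aldh1l1) against resilient, and -0.026 to 0.725 (Mthfd1l) and -0.064 to 0.234 (Shmt2) in HIP against CPU controls.

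The labels do not say whether replicate numbers pair the samples. Of 34 same-numbered pairs, 14 had a correlation of deviations over 0.1, and the range was -0.478 to 0.822. In NAC 6 of 9 pairs lay over 0.1. Pairs of unlike number were not set beside these, so pairing was neither shown nor excluded. With the replicate block, 0 members were called in PFC stressed against control, PFC stressed against resilient, PFC against NAC, PFC against CPU and the joint region test, and Aldh1l1, Mthfd1 and Shmt2 in PFC stressed against control were -0.102, -0.09 and 0, and Shmt2 in HIP against CPU controls -0.048. Under the block Aldh1l2 in PFC stressed against control was 0.667 (adjusted p = 0.144, edgeR). In PFC the block fit called 2875 of 15491 genes in stressed against control and 2996 in stressed against resilient. For the region tests under the block the shares of all genes called are not given here.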
